A study of Mus musculus with 12 samples.

Results

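The comparison described here set Fmr1 knockout mice given poly(I:C) against FVB mice given saline, 4 libraries against 4 of the 12 in the series. Expression was measured by bulk RNA sequencing of crus 1, a lobule of the lateral cerebellum. FVB saline mice were of the FVB strain, without the knockout, treated knockout mice carried the Fmr1 knockout and received poly(I:C) by intraperitoneal injection, and the remaining 4 libraries came from Fmr1 knockout mice given saline, the group whose titles read sham. Both knockout groups carried the Fmr1 knockout, no FVB group with poly(I:C) was analysed here, and the labels used here state neither age nor the time between injection and collection. The labels name the tissue as cerebellum, and crus 1 comes from the series title. The difference between treated knockout and FVB is the sum, gene by gene on the log2 scale, of the difference between saline knockout and FVB and the difference between treated and saline knockout. The first of these holds whatever separates the knockout line from FVB, at Fmr1 or elsewhere in the genome. Of 57010 listed genes, 19166 had enough counts to be tested. A gene is said to have risen, fallen, changed or been called where edgeR's quasi-likelihood test gave a Benjamini-Hochberg adjusted p under 0.05, and 1352 genes (7.05% of those tested) were called in this comparison. Among them, 751 (3.92%) were called here while neither of the other differences was called for the same gene, and these genes called only here are the main subject.

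Fmr1 encodes the RNA-binding protein FMRP, a repressor of translation in neurons whose absence underlies fragile X syndrome. Poly(I:C) is a synthetic stand-in for viral double-stranded RNA. It is sensed by Toll-like and RIG-I-like receptors, which drive type I interferon, and interferon in turn switches on antiviral genes through the ISGF3 complex in many cell types, brain cells included. In the cerebellar cortex, granule cells excite Purkinje cells, while molecular layer interneurons and Golgi cells release GABA.

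The libraries held 35.2 to 56.4 M counts, with 25300 to 27565 genes detected in each. Levels below are CPM, counts scaled to a common library size with TMM factors, not divided by gene length, so they compare libraries within a gene and not genes with each other. The labels name separate samples without saying that each came from its own animal, so the p-values reflect spread among these samples only, which may be technical. Fmr1 was at 85.5 to 108 CPM in FVB, 27.9 to 36.7 in saline knockout libraries and 33.9 to 36.0 in treated ones, and the knockout libraries all lay below the FVB ones (log2 fold change of treated knockout against FVB −1.46, SE 0.0879, edgeR adjusted p = 1.59e-09). Cerebellar markers were abundant in every library, for example Gabra6 of granule cells at 847 to 1120 CPM and Car8 of Purkinje cells at 1240 to 1530 CPM. Ttr, a choroid plexus gene, stood at 4160 CPM in saline knockout 2 and at 2170 and 2630 CPM in treated knockout 2 and 3, against 1.63 to 65.3 CPM in the other 9 libraries. No FVB library was high in Ttr, so results were also computed without these 3 libraries, a setting chosen after seeing the data that left 4 FVB and 2 treated knockout libraries.

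Interferon-induced genes made up most of the largest rises. Of the 1352 called genes 731 rose (3.81% of tested genes) and 621 fell (3.24%), and 345 of the rises but 94 of the falls were at least 2-fold. The 4 and 4 libraries did not overlap for 2721 tested genes (14.2%), and 1215 of the called genes were among them. Gbp2b, an interferon-inducible GTPase, was at 0.171, 0.371, 0.162 and 0.328 CPM in FVB 1 to 4, at 2.87, 3.48, 3.20 and 4.60 in saline knockout 1 to 4, and at 73.1, 71.3, 69.1 and 62.4 in treated knockout 1 to 4 (log2 8.08 against FVB, SE 0.195, edgeR adjusted p = 1.27e-14). It climbed in both steps, with no overlap between any groups. Ifi44l, another interferon-induced gene, had no counts in FVB and was at 10.6 ± 1.74 CPM (SD, n = 4) in the treated knockout, at least 563-fold higher than a floor of 3 counts over the FVB group, which is 0.0189 CPM and covers counting error only. Mndal, a member of the interferon-inducible Ifi200 family, rose by 7.32 on the log2 scale, and Mx1 (6.75), Oasl1 (6.22) and Ifi44 (5.99), all antiviral effectors or their relatives, followed. Cxcl10, a chemokine that attracts activated T cells, rose by 5.72 and Lcn2, the iron-binding protein lipocalin 2, by 6.26. The remaining genes of the 10 largest rises were Crym, a thyroid hormone-binding protein (6.82), and Dynlt1b, a dynein light chain (6.34). Treated knockout 2 had 0.236 CPM of Dynlt1b, near FVB, against 7.28 to 13.4 in the other treated libraries, and the call was lost with limma-voom (adjusted p = 0.23), with only the 2 groups compared (0.0534 by edgeR) and with a replicate block (0.0523). Dynlt1b belongs to a cluster of near-identical copies, as Gbp2b and Mndal have close relatives, so reads shared between copies make those 3 levels uncertain.

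The largest falls were of receptors, enzymes, transporters and matrix genes. Npsr1, the neuropeptide S receptor, averaged 6.06 ± 0.676 CPM in FVB with no counts in either knockout group, at least 381-fold lower than FVB by the floor of 3 counts over the treated knockout (0.0159 CPM). Gdpd3, a lysophospholipase D, fell by 3.30 on the log2 scale, Slc15a2, a peptide transporter, by 1.88, and Col6a3, a collagen chain, by 1.71, and all 3 were also called between saline knockout and FVB. Gdpd3 averaged 22 CPM in FVB, 0.783 in the saline and 2.18 in the treated knockout. The call of Gdpd3 was lost without the 3 libraries high in Ttr (edgeR adjusted p = 0.0588). Gkn3, a gastrokine, fell by 3.20, Tmprss3, a membrane serine protease, by 2.23, Adgre1, the macrophage marker F4/80, by 1.71, and Tnc, the matrix protein tenascin C, by 1.49 (0.107 without those 3 libraries). Hmcn1, a large extracellular matrix protein, and Catspere2, which belongs to the family of sperm calcium channel subunits, completed the list and were called only here. Hmcn1 was at 22, 20.8, 30.2 and 24 CPM in FVB, at 15.2, 21.8, 5.95 and 4.79 in the saline knockout and at 7.26, 1.97, 1.84 and 1.35 in the treated knockout (log2 −2.94, SE 0.655, edgeR adjusted p = 0.0283). Saline knockout 2 lay within the FVB range, saline knockout 3 and 4 lay within the treated range and saline knockout 1 between them. The Hmcn1 call ended when any FVB library or treated knockout 2, 3 or 4 was left out (edgeR adjusted p up to 0.0922) and without the 3 libraries high in Ttr (0.248). Catspere2 fell from 5.09 ± 1.20 CPM in FVB to 2.11 ± 1.18 in the saline and 1.09 ± 0.157 in the treated knockout (log2 −2.23, SE 0.329, edgeR adjusted p = 4.18e-04), and no omission of 1 library ended that call.

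The 1352 called genes fell into 4 classes by the other calls. The comparison of saline knockout with FVB called 294 genes (1.53% of tested genes) and that of treated with saline knockout 550 (2.87%). Of the 1352, 402 were also called between treated and saline knockout, 189 were also called between saline knockout and FVB, 10 were called in all 3 comparisons, and 751 were called only here. Those 751 comprised 341 rises (1.78% of tested genes) and 410 falls (2.14%), so falls were in the majority there, while among the 402 the rises numbered 275 and the falls 127. They were mostly small changes. The median rise was 0.64 on the log2 scale, beside 1.73 for the 275, and the median fall was −0.38. The class is defined by thresholds in 3 comparisons that share libraries, and passing in one without passing in another is no test of a difference between them.

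**Figure D1:**
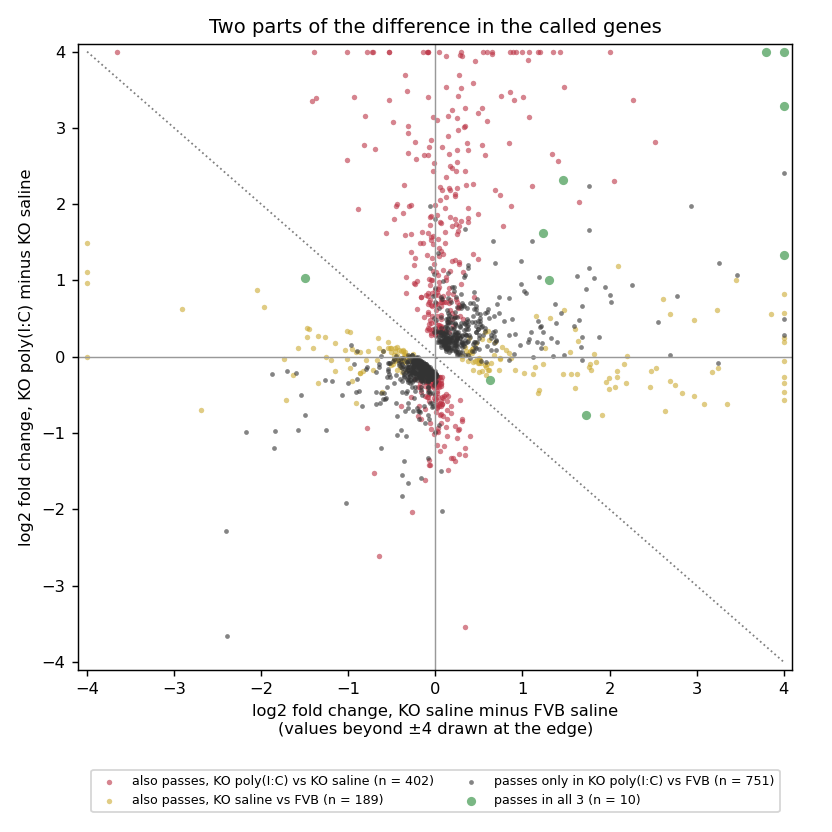
Log2 fold change of saline knockout minus FVB (x axis) and of treated minus saline knockout (y axis) for the 1352 called genes, 1 point per gene, with values beyond ±4 drawn at the edge and a dotted line where the parts would cancel. The 402 red genes spread along the y axis, the 189 yellow ones along the x axis, and the 751 dark ones lie mainly close to the origin, in the upper right and lower left quadrants.

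For the genes called only here, the component differences are values of the same libraries and stand as a description. The class rule leaves out genes with a call in either component, so it favours components that are each modest. Among the 341 rises the median difference was 0.27 between saline knockout and FVB and 0.30 between treated and saline knockout. Among the 410 falls the medians were −0.18 and −0.20. The larger component was the saline knockout difference for 367 genes and the treatment difference for 384. Of the 751 genes, 72 had an unadjusted p under 0.05 in both other comparisons, 590 in 1 of them and 89 in neither, and for 177 the smaller of the other adjusted p-values lay between 0.05 and 0.1. The calls nearest the limit were those of Gpr84, C2cd4d and Stx5a (edgeR adjusted p = 0.0499), while Tbata (0.0502), Gpr161 and Scly (0.0504) lay just outside. Slc1a4 entered the class with an adjusted p of 0.0504 between treated and saline knockout, and Oat was kept out with 0.0498.

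Of the 751 genes 89.2% were protein coding, against 78.4% of all tested genes, and their median level was 4.39 log2 CPM against 3.69. A total of 651 had no overlap between the 4 and 4 libraries, as did 1215 of all 1352 called genes and 14.2% of all tested genes. By chromosome the share of tested genes called only here was highest on chromosome 1 (6.46%), chromosome 17 (5.37%) and chromosome 13 (5.01%) among those with over 20 tested genes, beside 3.92% over all. When each library was left out in turn, 206 of the 751 (27.4%) were called against FVB in all 12 fits, while 445 of the other 601 called genes (74%) were. The number called only here was 360 without treated knockout 3, 420 without FVB 2 and 467 without FVB 4, and otherwise 511 to 927. Without the 3 libraries high in Ttr 110 of the 751 were still called against FVB. Over all 751, whether called or not, the medians were then 0.55 for the 341 rises and −0.34 for the 410 falls.

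Library by library, the median over the 341 rises, as log2(CPM + 0.1) minus the FVB mean, was 0.25, 0.28, 0.24 and 0.28 in saline knockout 1 to 4 and 0.49, 0.55, 0.80 and 0.56 in treated knockout 1 to 4. Over the 410 falls it was −0.14, −0.19, −0.15 and −0.25 in the saline knockout and −0.30, −0.40, −0.45 and −0.38 in the treated knockout. Saline knockout 2, with the highest Ttr, did not stand apart from its group in either value, while treated knockout 3 had the largest value of both kinds. The genes were selected on these libraries, so the order of the FVB and treated groups is built in. The rule also excludes genes called in either difference that involves the saline knockout, so it favours a middle position of that group as well.

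**Figure D2:**
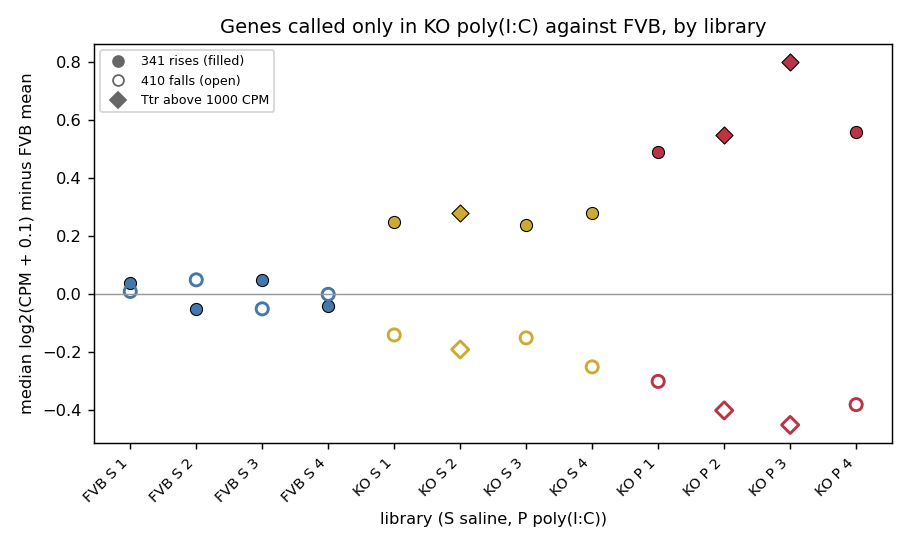
Median log2(CPM + 0.1) minus the FVB mean over the 341 rises (filled) and 410 falls (open) called only here, for each of the 12 libraries (x axis), with diamonds for the 3 libraries whose Ttr exceeds 1000 CPM. The saline knockout libraries lie at 0.24 to 0.28 and −0.25 to −0.14, the treated ones at 0.49 to 0.80 and −0.45 to −0.30.

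Among the rises called only here were regulators of immune signalling. Pml, the scaffold of PML nuclear bodies and itself interferon-inducible, was at 9.19, 12.8, 11.3 and 10.0 CPM in FVB, at 17.6, 19.6, 13.9 and 10.9 in the saline knockout and at 23, 21.1, 21.1 and 18.5 in the treated knockout. The saline knockout straddled the other groups, saline knockout 4 lying within the FVB range and saline knockout 2 within the treated one. The difference of treated knockout from FVB was 0.95 on the log2 scale (SE 0.154, edgeR adjusted p = 8.96e-04). Trafd1, a zinc finger protein that dampens innate immune signalling, was at 58.0 to 63.8 CPM in FVB, 65.5 to 74.6 in saline knockout libraries and 70.9 to 94.8 in treated ones (0.43, SE 0.0777, adjusted p = 0.0017). Csf2ra, a receptor chain for the growth factor GM-CSF, was at 4.08 to 6.06, 6.28 to 8.16 and 8.38 to 11.4 CPM in the same order (0.80, SE 0.148, adjusted p = 0.00213). All 3 groups of Csf2ra libraries were apart from each other, saline knockout in the middle. Without the 3 libraries high in Ttr the calls of Trafd1 (edgeR adjusted p = 0.0509) and Csf2ra (0.0614) were lost, and that of Pml was kept (0.00569).

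Psme2, a subunit of the interferon-inducible proteasome activator PA28, was at 11.4 to 16.2 CPM in FVB, 16.4 to 17.2 in saline knockout libraries and 18.6 to 21.3 in treated ones, again with no overlap (0.49, SE 0.0985, edgeR adjusted p = 0.00403). Parp11, an ADP-ribosyltransferase, rose by 0.43 (adjusted p = 0.00284) from 18.3 ± 1.02 to 24.7 ± 1.29 CPM. Further antiviral and innate immune genes called only here were chosen after their values were seen. Myd88, the adaptor of most Toll-like receptors, was at 3.02 to 3.30 CPM in FVB, 3.39 to 4.43 in saline knockout libraries and 4.69 to 5.29 in treated ones (0.66, adjusted p = 0.00813). Ifitm2, which blocks entry of viruses into cells, rose by 0.91 (adjusted p = 0.0101) and Socs3, a feedback inhibitor of cytokine receptors, by 1.54 (0.0079). Treated knockout 4 had a Socs3 level of 1.08 CPM, within the FVB range of 0.682 to 1.32, against 2.95 to 3.77 in the other treated libraries. Of these genes, Parp11 kept its call without the 3 libraries high in Ttr (edgeR adjusted p = 0.0289), and Psme2 (0.1), Myd88 (0.0682), Ifitm2 (0.0753) and Socs3 (0.129) did not.

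The interferon-stimulated list as a whole belonged to the class called against both controls. Of its 71 tested members 70 rose and all 71 had a positive difference, with a median of 2.83 beside 0.00 for all tested genes, and only 2 of the 70, Pml and Lgals3bp, were called only here. Trim30a, an interferon-induced ubiquitin ligase, showed the usual pattern of the list, with 2.38 to 3.06 CPM in FVB, 2.52 to 3.88 in saline knockout libraries and 22.8 to 29.6 in treated ones (3.38, edgeR adjusted p = 2.42e-11). A total of 69 members were called without the 3 libraries high in Ttr. Lgals3bp, a secreted scavenger-like glycoprotein chosen after its values were seen, rose by 2.18 (adjusted p = 0.0237), and its highest saline knockout value, 33.7 CPM against 10.6 to 12.3 in the others, was in the library high in Ttr. Its call ended without FVB 1, 2 or 4 or treated knockout 2 or 3 (edgeR adjusted p up to 0.0727) and was kept without the 3 libraries high in Ttr (0.00117).

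MHC class I antigen presentation had more genes of this kind. The pathway loads peptides from the proteasome onto class I molecules for display to T cells. Of 21 tested genes 17 rose (median 0.99), a count that held whichever single library was left out, while 10 were called without the 3 libraries high in Ttr. Nlrc5, the transactivator of class I genes, rose by 4.24 and Tap1, a peptide pump, by 1.98. Called only here were 4, namely Psme2 and, chosen after their values were seen, Tapbpl, H2-M3 and H2-T22. Tapbpl, a peptide editor related to tapasin, was at 6.59 to 7.00 CPM in FVB, 5.99 to 8.87 in saline knockout libraries and 9.16 to 12.3 in treated ones (0.64, edgeR adjusted p = 0.00554). H2-T22 was at 2.99 to 3.33 CPM in FVB, at 13.4, 8.39, 15.4 and 3.40 in saline knockout 1 to 4 and at 12.7, 24.7, 14.2 and 13 in the treated knockout (2.36, adjusted p = 0.00998). Saline knockout 4 sat next to FVB, saline knockout 1 and 3 lay within the treated range, and saline knockout 2 lay between. H2-T22 has near-identical neighbours in its gene cluster and its counts are uncertain. Each of these 4 calls was lost without the 3 libraries high in Ttr (0.0997 to 0.173).

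Promoter sequences were searched for the ISRE-like letters GAAANNGAA, the core bound by interferon-activated factors, and for the GAS-like letters TTCNNNGAA bound by STAT dimers, on both strands in the 250 bases before each gene's start in RefSeq's table for GRCm38.p6. Of 27025 promoters 8.18% held the first and 8.13% the second. The ISRE-like letters were in 11.3% of the 239 matched promoters of rises called only here, in 6.80% of the 309 of falls called only here, in 30.7% of the 212 of rises also called against the saline knockout, and in 49.1% of the 53 of the called interferon list. The GAS-like letters were in 10.0%, 6.80%, 12.3% and 18.9% of the same sets. The stretches around the ISRE-like match are printed for 2 of the largest rises and for 3 genes called only here, so that the letters can be seen in both classes, each on the gene's own strand with the match in capitals. They lie at chr3:142594666-142594764 (plus strand, Gbp2b), chr1:173880188-173880268 (minus strand, Mndal), chr6:127446752-127446839 (plus strand, Parp11), chr9:119340019-119340103 (minus strand, Myd88) and chr1:183296899-183296997 (plus strand, Aida). In Gbp2b and Parp11 the capitals are the reverse complement of the searched letters. A match describes the letters only and does not show that a factor binds there.
Gbp2b: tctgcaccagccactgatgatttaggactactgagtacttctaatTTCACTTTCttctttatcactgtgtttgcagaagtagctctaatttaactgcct
Mndal: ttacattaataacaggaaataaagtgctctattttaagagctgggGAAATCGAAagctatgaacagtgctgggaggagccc
Parp11: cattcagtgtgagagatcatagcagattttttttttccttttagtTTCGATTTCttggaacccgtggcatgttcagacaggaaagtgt
Myd88: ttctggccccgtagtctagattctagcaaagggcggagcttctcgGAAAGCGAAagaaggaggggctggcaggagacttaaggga
Aida: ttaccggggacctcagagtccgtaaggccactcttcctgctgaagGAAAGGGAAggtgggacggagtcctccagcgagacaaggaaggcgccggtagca

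Other rises called only here were spread over many functions. Pcgf5, a Polycomb subunit, had the smallest p of them and was at 20.9 to 23.7 CPM in FVB, 24.3 to 29.0 in saline knockout libraries and 29.7 to 34.3 in treated ones (0.55, SE 0.0801, edgeR adjusted p = 1.84e-04). Its 3 groups did not overlap. Aida, an inhibitor of JNK activation by Axin, was at 45.1 to 50.2, 50.0 to 54.0 and 59.1 to 65.3 CPM (0.36, SE 0.0617, adjusted p = 9.55e-04). Igfbp7, a secreted protein of vessel walls that binds insulin-like growth factors, was at 9.92 to 13.8, 11.1 to 18.1 and 19.2 to 22.8 CPM (0.78, SE 0.135, adjusted p = 0.00127). Emp1, an epithelial membrane protein also on the reactive astrocyte list, was at 2.56 to 3.50, 3.18 to 5.29 and 5.84 to 8.44 CPM (1.11, SE 0.192, adjusted p = 0.00112). In Igfbp7 and Emp1 the treated libraries lay above all others, and the saline knockout reached into the FVB range. Adrb1, the beta-1 adrenergic receptor, rose by 1.20, and Fxyd5, a regulator of the sodium pump, by 1.24. Cers6, a ceramide synthase, rose by 0.43, Pgm2l1, which makes a sugar bisphosphate, by 0.31, and Gapdhs, the sperm form of the glycolytic enzyme, by 1.01. Rbl1, a relative of the retinoblastoma protein (0.62), Wdr45, an autophagy protein (0.55), Bbs1, a subunit of the ciliary BBSome (0.45), Utp14b, a ribosome assembly factor (0.74), Kirrel2, an adhesion protein (0.94), and Zbtb40, a zinc finger protein (0.53), made up the rest of the 20 with the smallest p. All 20 were called in each of the 12 fits that left out 1 library. Omitting the 3 libraries high in Ttr left 10 of the 20 called.

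**Figure D3:**
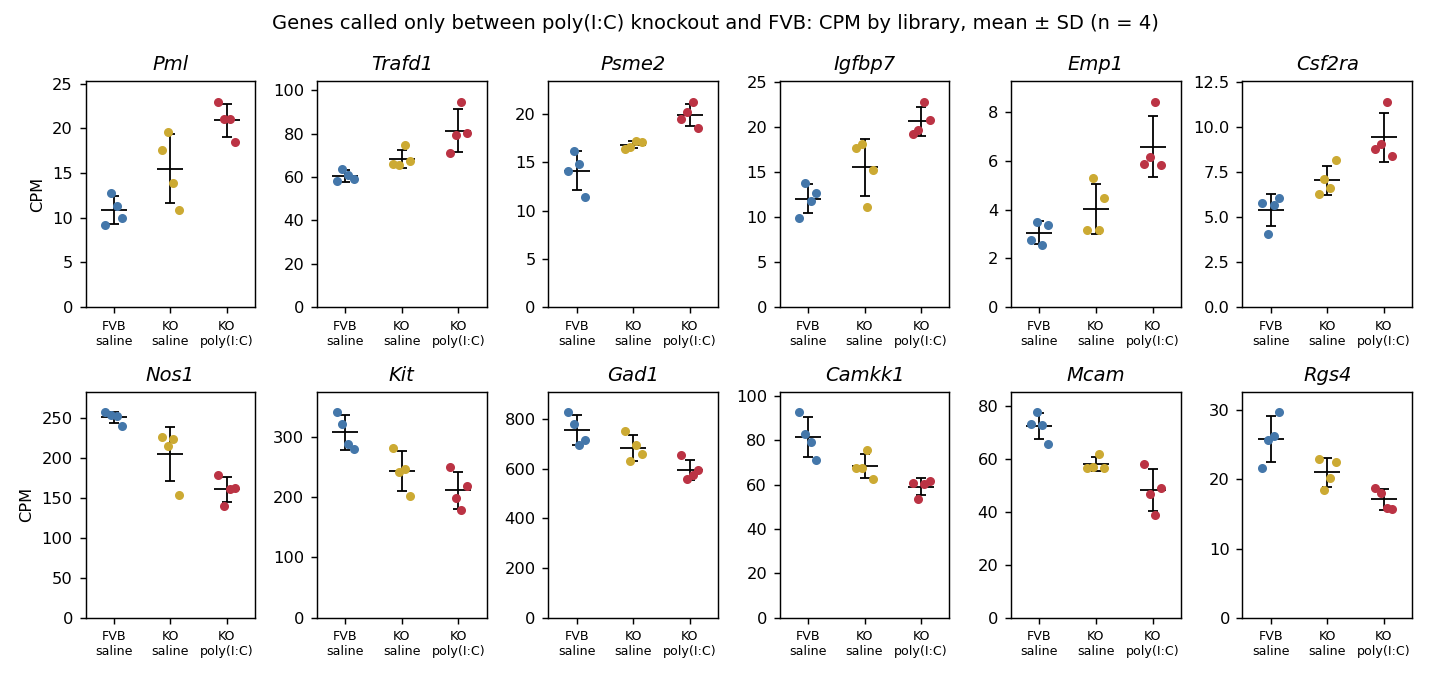
CPM (y axis, from 0) of 12 genes called only between treated knockout and FVB, 1 point per library in FVB saline, saline knockout and treated knockout, with the mean and SD of 4 libraries. In each panel the saline knockout mean lies between the others, for example 10.8, 15.5 and 20.9 CPM for Pml and 250, 204 and 161 CPM for Nos1. The rule for this class favours that position.

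The falls called only here included signalling genes of cerebellar interneurons and Purkinje cells. Nos1, the neuronal nitric oxide synthase that granule cells and molecular layer interneurons express, was at 257, 253, 252 and 240 CPM in FVB, at 226, 215, 223 and 154 in the saline knockout and at 179, 140, 161 and 162 in the treated knockout (log2 −0.64, SE 0.102, edgeR adjusted p = 8.56e-04). All saline knockout libraries lay below all FVB libraries, and saline knockout 4 lay within the treated range. Downstream of nitric oxide, the guanylate cyclase subunit Gucy1a1 and the cGMP-dependent kinase Prkg1 were chosen after their values were seen. Prkg1 was at 42.3 to 48.3 CPM in FVB, 35.2 to 43.2 in saline knockout libraries and 27.7 to 35.8 in treated ones (−0.45, SE 0.0884, adjusted p = 0.00378). Gucy1a1 went from 72.4 ± 3.30 to 68.8 ± 3.57 and 59.5 ± 5.86 CPM (−0.28, SE 0.0717, adjusted p = 0.021). The Gucy1a1 call was lost without FVB 2, FVB 4, treated knockout 3 or treated knockout 4 (adjusted p up to 0.0802), and the calls of Nos1 and Prkg1 were lost with no single library. Without the 3 libraries high in Ttr Nos1 (0.029) and Gucy1a1 (0.0393) were called and Prkg1 (0.0588) was not.

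Kctd12, an auxiliary subunit of GABA-B receptors, was at 299 to 329 CPM in FVB, 255 to 283 in saline knockout libraries and 222 to 257 in treated ones (−0.36, SE 0.0619, edgeR adjusted p = 0.00101). Here the saline knockout was already clear of FVB and overlapped the treated group. Camkk1, a kinase that activates calmodulin-dependent kinases, was at 71.2 to 92.6, 62.7 to 75.6 and 53.3 to 61.5 CPM (−0.47, SE 0.0804, adjusted p = 0.00109). Rgs4, which shortens G protein signalling, was at 21.6 to 29.7, 18.5 to 22.9 and 15.7 to 18.8 CPM (−0.59, SE 0.104, adjusted p = 0.00125). For Camkk1 and Rgs4 the treated libraries lay below every FVB library. The saline knockout overlapped FVB for both genes and the treated group for Rgs4. Syndig1l, a membrane protein related to a synapse inducer, had the smallest p among the falls, going from 17.3 ± 2.53 in FVB to 13.3 ± 1.69 and 9.65 ± 1.08 CPM (−0.84, adjusted p = 2.33e-04). Wwc1, the memory-associated scaffold KIBRA, fell by 0.54, Tbc1d24, a synaptic vesicle protein, by 0.36, Necab3, a neuronal calcium-binding protein, by 1.13, and Dact1, a modulator of Wnt signalling, by 0.52. Mcam, an adhesion protein of vessels and neurons, fell by 0.59 and Itga2, an integrin collagen receptor, by 1.31. The others among the 20 falls with the smallest p were Cyp20a1 (−0.58), Catspere2 (−2.23), Mtmr6 (−0.44), Fam78b (−0.40), Rassf8 (−0.44), Pnma3 (−0.82), Btbd11 (−0.45), Samd4 (−0.46) and Tnfrsf21 (−0.33). All 20 were called with each single library left out, and 19 without the 3 libraries high in Ttr, Tnfrsf21 (edgeR adjusted p = 0.0682) being the exception.

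In the interneuron, Purkinje cell, synapse and ion channel lists most called genes fell, by small amounts. Many were called only here, as were 751 of all 1352 called genes, and the share called ranged from 8.33% in the glutamatergic list to 25% in the interneuron list beside 7.05% of all tested genes. In bulk tissue fewer cells of a type and less RNA per cell cannot be told apart. Of 24 genes of cerebellar interneurons and Golgi cells 6 fell (median −0.22), 5 of them only here. Kit, a receptor tyrosine kinase of molecular layer interneurons, was at 341, 321, 288 and 280 CPM in FVB, at 282, 242, 247 and 202 in the saline knockout and at 251, 198, 179 and 218 in the treated knockout (−0.54, SE 0.11, edgeR adjusted p = 0.00731). All treated libraries lay below all FVB libraries. Cdh22, a cadherin, fell by 0.32 (edgeR adjusted p = 0.0125, and up to 0.0528 without FVB 2 or treated knockout 2). Further members called only here, Npas3 (−0.51, lost in 4 of the 12 omissions) and Nxph1 (−0.38, lost in 6), were chosen after their values were seen. Of 32 Purkinje cell markers 6 fell (median −0.16), 4 only here, among them Gad1 and, chosen after their values were seen, Fam107b (lost in 3 omissions) and Rora (lost in 4). Gad1, the enzyme that makes GABA, was at 696 to 828 CPM in FVB, 632 to 754 in saline knockout libraries and 560 to 654 in treated ones (−0.34, SE 0.0737, adjusted p = 0.00755), and Rora, a nuclear receptor that Purkinje cells need, fell by 0.26. Pcp2 and Calb1, markers of the same cells, stood at 201 to 237 and 975 to 1200 CPM in FVB and at 225 to 247 and 865 to 1100 CPM in the treated knockout, overlapping for both. Leaving out 1 library gave 4 to 8 calls for the interneuron list and 4 to 7 for the Purkinje list. With the 3 libraries high in Ttr left out 0 and 1 were called by edgeR, the latter Stk17b, a kinase also called between saline knockout and FVB (edgeR adjusted p = 0.0052), while Kit was at −0.39 (0.131) and Gad1 at −0.27 (0.16).

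Of 28 GABAergic synapse genes 4 fell (median −0.15), all only here, namely Gad1, the GABA-B receptor subunit Gabbr1 (−0.23) and the GABA-A receptor subunits Gabrg1 (−0.41) and Gabra4 (−0.32). Of these Gad1 alone was called in all 12 omissions, while Gabbr1 and Gabrg1 were lost in 5 and Gabra4 in 6. The count was 2 without FVB 1 and 1 without FVB 4 or treated knockout 2, 3 or 4. Of 48 glutamatergic synapse genes 4 fell (median −0.09). The NMDA receptor subunits Grin2b (−0.50, edgeR adjusted p = 0.0156) and Grin2a (−0.29, 0.0495) and the delta receptor Grid1 (−0.36, 0.0338) fell only here. Grin2b was lost without FVB 1 or treated knockout 3, Grid1 in 7 omissions and Grin2a in 10. That count was 1 without FVB 1 or treated knockout 3 and 2 without FVB 2, FVB 4 or treated knockout 2 or 4. Of 48 ion channels of neuronal firing 7 fell and 2 rose (median −0.13). Fgf14, an accessory protein of sodium channels, fell only here from 54.3 ± 5.75 CPM in FVB to 49.1 ± 5.28 and 41.9 ± 4.29 CPM (−0.37, edgeR adjusted p = 0.0207). Further falls called only here, chosen after their values were seen, were those of the calcium channel genes Cacna2d2 (−0.24) and Cacna1d (−0.24) and the potassium channel genes Kcna6 (−0.28) and Kcnc4 (−0.25), and the sodium channel subunit Scn2b rose only here by 0.23. Each of these 6 calls was lost in 5 to 9 of the 12 omissions. This count of 9 was 2 without FVB 1 or treated knockout 4, 3 without FVB 4 or treated knockout 2 or 3, and 5 without FVB 2. With the 3 libraries high in Ttr left out 0, 0 and 1 genes of the GABAergic, glutamatergic and channel lists were called, the last being the T-type calcium channel Cacna1h, which rose (1.1 here, adjusted p = 0.00153).

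Of 26 granule cell markers 2 rose and 2 fell, with a median of 0.01. The calcium release channel Ryr2 rose by 0.29 and calretinin, Calb2, fell by 0.39, both only here, as did Fgf14. Ryr2 was lost in 4 omissions and Calb2 in 7, the list's count being 1 without FVB 2 or treated knockout 3 or 4 and 2 without FVB 1, FVB 4 or treated knockout 2. Of 53 FMRP-bound transcripts 4 fell and 2 rose (median −0.04), 2 in each direction only here (Ryr2 and Tnrc6b up, Grin2a and Grin2b down), and Adcy5, an adenylyl cyclase, had the smallest p (−0.42, edgeR adjusted p = 7.76e-04, also called between saline knockout and FVB). The count was 2 without treated knockout 3 and 3 without FVB 2, FVB 4 or treated knockout 4. The 41 nuclear oxidative phosphorylation genes had a median of −0.05 and the 10 cerebellar identity genes one of 0.05. Of 28 immediate early genes 1 fell (median 0.08), of 25 cholesterol genes 2 rose (0.02), and of 21 clock genes 1 rose and 1 fell (0.03). The immediate early count was 0 without FVB 2, FVB 4 or treated knockout 3 or 4, and the clock count was 0 without FVB 2, 3 or 4 or treated knockout 3 and 1 without FVB 1, saline knockout 2 or treated knockout 2 or 4. Of 23 glucocorticoid-responsive genes 3 rose (0.62) and of 32 heat shock genes 3 rose (0.13). Of 20 iron handling genes 2 rose and 1 fell (−0.06). Lcn2, already named among the largest rises, is counted in the glucocorticoid-responsive and in the iron handling list. The glucocorticoid count was 7 without FVB 1 and 1 without FVB 3 or 4, and the heat shock count was 5 without saline knockout 4. With the libraries high in Ttr left out, edgeR called 1 glucocorticoid-responsive gene and none of the immediate early or clock genes. Beside 7.05% of all tested genes, the share called was 15.4% of granule cell markers and 11.3% of FMRP-bound transcripts. It was 3.57% of immediate early, 8% of cholesterol and 9.52% of clock genes. For glucocorticoid-responsive, heat shock and iron handling genes it was 13%, 9.38% and 15%. The cholesterol, clock and heat shock shares were near that of all tested genes.

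**Figure D4:**
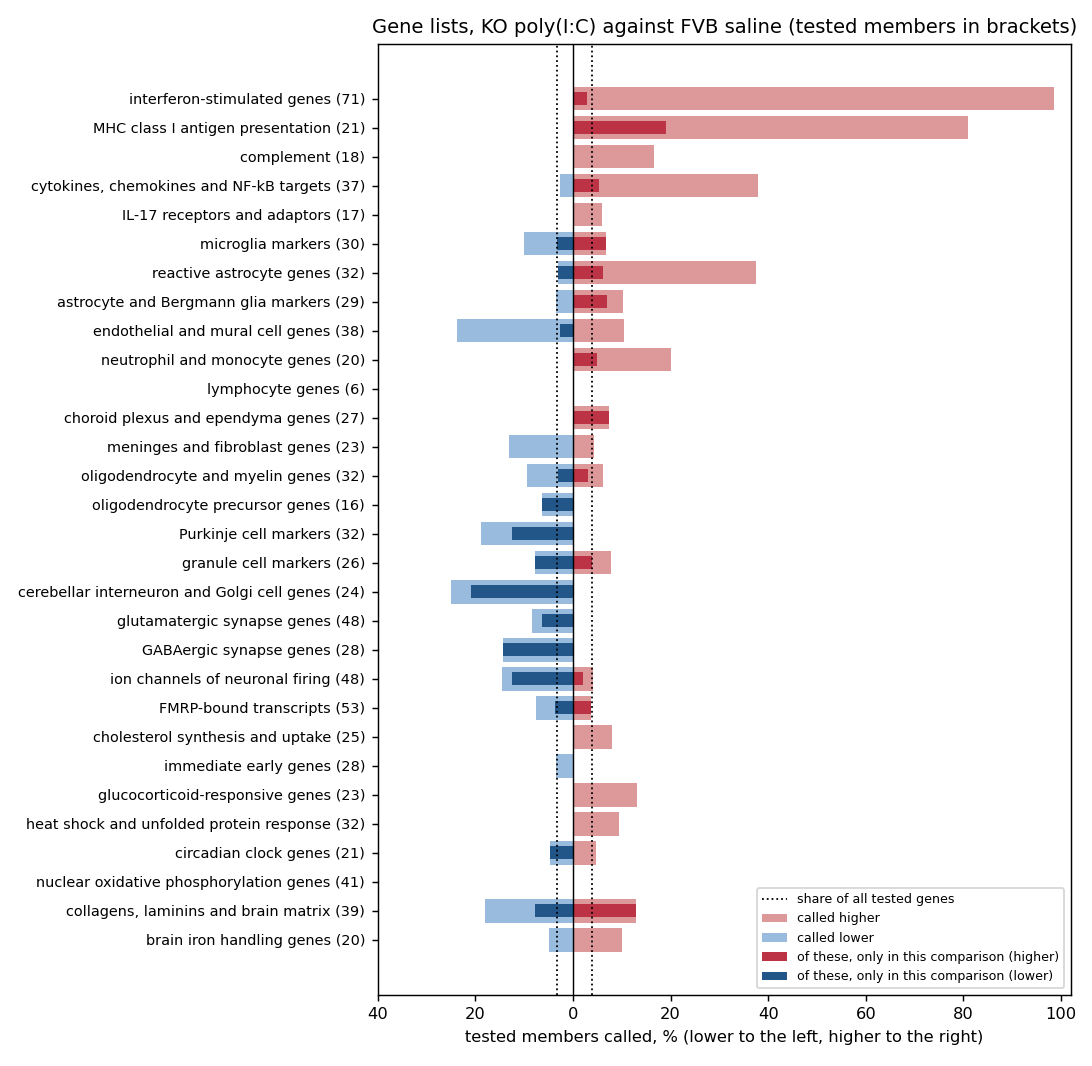
Share of each gene list's tested members (number in brackets) called higher (right, red) or lower (left, blue) in treated knockout against FVB, with darker inner bars for those called only in this comparison and dotted lines at the shares of all tested genes, 3.81% and 3.24%. The interferon list (70 of 71) and MHC class I list (17 of 21) stand out to the right in pale red, and on the left the interneuron, GABAergic and ion channel bars are almost filled by the dark bar.

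Glial lists were mixed. Of 29 astrocyte and Bergmann glia markers 3 rose and 1 fell (median 0.05). Glul, glutamine synthetase, which clears glutamate, was at 881, 614, 686 and 628 CPM in FVB, at 875, 714, 898 and 934 in the saline knockout and at 917, 1210, 1630 and 1640 in the treated knockout (0.94, SE 0.19, edgeR adjusted p = 0.014). FVB 1 lay just below treated knockout 1, and the groups did not overlap. Gjb6, an astrocyte connexin, rose only here too (0.71, adjusted p = 0.0461) and was lost in 9 omissions. The Glul call was lost without FVB 2 (edgeR adjusted p = 0.051), with only the 2 groups compared (0.0525) and without the 3 libraries high in Ttr (0.112). The list's count was 0 by edgeR when those 3 libraries were left out, 1 without FVB 2 or with only the 2 groups compared, and 2 without FVB 4 or treated knockout 3 or 4. Of 32 reactive astrocyte genes 12 rose and 1 fell (median 0.58). The smallest p-values were those of Iigp1 (3.96), Gbp2 (3.15), Osmr (1.51) and Psmb8 (2.67), each also called between treated and saline knockout. How far this list repeats the rise of interferon-induced genes was not tested. Emp1 rose only here, as did Srgn (0.51), a proteoglycan core protein chosen after its values were seen, while Vim, the filament protein vimentin, fell only here (−0.48, adjusted p = 0.03), and Srgn and Vim were lost in 6 and 5 omissions. Vim was also chosen after its values were seen. The list had 10 calls without FVB 2, without treated knockout 3 or without the 3 libraries high in Ttr. Of 32 oligodendrocyte and myelin genes 2 rose and 3 fell (median −0.06). Mobp, a structural myelin protein, was at 489 to 733 CPM in FVB, 742 to 857 in saline knockout libraries and 817 to 1010 in treated ones (0.52, SE 0.106, adjusted p = 0.00659, and 0.131 without the 3 libraries high in Ttr), the saline knockout lying above FVB in every library. Tspan2, a myelin tetraspanin chosen after its values were seen, fell only here by 0.30 (lost in 5 omissions). That list's count was 9 without treated knockout 1. The share called was 13.8% of the astrocyte and Bergmann glia list, beside 7.05% of all tested genes. It was 40.6% of the reactive astrocyte list and 15.6% of the oligodendrocyte and myelin list.

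Of 30 microglia markers 2 rose and 3 fell (median −0.04). Fcrls fell by 1.24, mostly between FVB and saline knockout, and P2ry12, the receptor by which resting microglia sense ADP, fell by 0.59, mostly between saline and treated knockout (edgeR adjusted p = 0.0125, up to 0.0546 without FVB 4 or treated knockout 3). Called only here were a fall of Gpr34 (−0.87), a lysophosphatidylserine receptor, and rises of Fcgr3 (1.07), an activating Fc receptor, and Gpr84 (1.92), the last chosen after its values were seen and at 0.367 ± 0.0878 CPM in the treated knockout. The count of 5 was 2 without FVB 3 and 3 without FVB 1, 2 or 4 or treated knockout 2 or 3. Of 20 neutrophil and monocyte genes 4 rose, with a median of 1.48. Ly6c2, a marker of inflammatory monocytes, was at 0 to 0.341 CPM in FVB, 0.403 to 2.16 in saline knockout libraries and 1.54 to 3.02 in treated ones (3.20, SE 0.63, adjusted p = 0.00763) and was called only here. Its close relative Ly6c1, on the endothelial list, averaged 41.7 CPM in FVB and 98.3 in the treated knockout. Reads shared between the 2 genes would make the level of Ly6c2 uncertain. S100a8 and S100a9, neutrophil genes, were at 0.114 to 0.191 and 0.318 to 1.02 CPM in FVB, at 0.73 to 5.51 and 1.72 to 10.8 in saline knockout libraries and at 0.283 to 1.46 and 1.31 to 3.73 in treated ones, so the highest levels were in the saline knockout, and neither was called here (edgeR adjusted p = 0.0792 and 0.134). The T cell genes Cd3e, Cd4 and Cd8a were at or below 0.397 CPM in every library. The part of such cells in the Ly6c2 result was not tested. Of 37 cytokine, chemokine and NF-kB target genes 14 rose and 1 fell (median 0.37), and only Cxcl1 (2.24) and Tnfrsf1b (0.64), a receptor for tumour necrosis factor, were called only here, both chosen after their values were seen and lost in 5 and 8 omissions. Of 18 complement genes 3 rose (median 0.27), C1ra, C4b and C1qb, and each was lost when the 3 libraries high in Ttr were left out (edgeR adjusted p = 0.106, 0.106 and 0.206). C1qb was also lost without FVB 3, FVB 4 or treated knockout 3. C1ra was at 5.53 and 6.83 CPM in treated knockout 2 and 3, the treated libraries high in Ttr. It was at 2.32 and 2.37 in treated knockout 1 and 4. C4b was at 18.3, 19.3, 27 and 18.6 CPM in treated knockout 1 to 4. C1ra, C4b and C1qb all kept their calls with log2 Ttr as a covariate. The cause of their loss without the libraries high in Ttr was not tested. The 6 tested lymphocyte genes had a median of −0.28. Beside 7.05% of all tested genes, the share called was 16.7% of the microglia list and 20% of the neutrophil and monocyte list. It was 40.5% of the cytokine list and 16.7% of the complement list.

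Endothelial and mural cell genes had a median of −0.29, with 9 falls and 4 rises among 38. Of these 13 calls 1, the sialomucin Emcn (−0.70, edgeR adjusted p = 0.0254), was made only here. Emcn was chosen after its values were seen and was lost without FVB 2 or 4 or treated knockout 1 or 4 (adjusted p up to 0.0874). The angiopoietin receptor Tek, also chosen after its values were seen (19.5 ± 1.15 to 10.1 ± 1.85 CPM, −0.95) and its partner Tie1 (10.5 ± 1.40 to 5.13 ± 0.588 CPM, −1.03) were at 19.8 ± 2.64 and 10.4 ± 0.397 CPM in the saline knockout, level with FVB, and without the 3 libraries high in Ttr the list again held 4 rises and 9 falls. Among 39 collagens, laminins and other brain matrix genes 5 rose and 7 fell (median −0.12), and 8 of these 12 were called only here. Col5a3, a fibrillar collagen, was at 1.39 to 2.99 CPM in FVB, 2.95 to 4.14 in saline knockout libraries and 3.86 to 7.05 in treated ones (1.09, SE 0.229, adjusted p = 0.00606). The basement membrane collagen chains Col4a1 (0.84) and Col4a2 (0.74), the laminin Lama2 (0.36) and Col27a1 (1.61) rose too, and Lama1 (−0.54), Bcan, the proteoglycan brevican (−0.25), and Col25a1, a neuronal transmembrane collagen (−1.35, adjusted p = 0.00871), fell. Col27a1 was highest in treated knockout 2 and 3, at 37.1 and 47.3 CPM against 19.3 and 19 in treated knockout 1 and 4. Col5a3 and Col25a1 were called in all 12 omissions, and the other 6 were lost in 1 to 7 of them, Col27a1 without FVB 2 (edgeR adjusted p = 0.0517). Without treated knockout 3 the matrix count was 5, without FVB 3 or 4 it was 6, and without the 3 libraries high in Ttr it was 2, Col27a1 (0.00802) and Col25a1 (0.0288). All of these matrix genes but Col5a3, Col25a1 and Bcan were chosen after their values were seen. The share called was 34.2% of the endothelial and mural list and 30.8% of the matrix list, beside 7.05% of all tested genes.

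Choroid plexus and ependymal genes had a median of 1.93, higher than any list but the interferon one, with 2 of 27 called. That share, 7.41%, was near the 7.05% of all tested genes. The summed level of the list was 292 to 400 CPM in FVB, 293 to 6610 in saline knockout libraries and 214 to 4320 in treated ones. Both calls, Cfap126 and Dynlrb2, which encode parts of motile cilia, were made only here. Cfap126 was at 0.983 to 1.25 CPM in FVB, at 1.75, 4.21, 1.44 and 2.38 in the saline knockout and at 2.21, 2.85, 2.92 and 1.80 in the treated knockout (1.12, SE 0.287, edgeR adjusted p = 0.0225), so that all knockout libraries exceeded FVB and the highest was the library with the highest Ttr. Neither gene was called without the 3 libraries high in Ttr (0.14 and 0.151), and 2 falls were called on the list then. The count was 0 without FVB 2, FVB 3 or treated knockout 2 and 1 without FVB 4 or treated knockout 1 or 3. Of 23 meningeal and fibroblast genes 1 rose and 3 fell (median −0.27), each also called in another comparison. Among genes of regions beyond the dissected one, 1 of 8 forebrain genes rose, and of 7 brainstem genes 1 rose and 1 fell, the rise being that of Dbh, a noradrenaline enzyme called only here (2.23, edgeR adjusted p = 0.00365, and 0.0691 without the 3 libraries high in Ttr). The brainstem count was 1 without FVB 2 or 4 or treated knockout 1, 2 or 3, and 0 by edgeR without the 3 libraries high in Ttr. Of 17 IL-17 receptor and adaptor genes, named because the series title refers to IL-17A, only the target Lcn2 rose, a count that was 3 without FVB 1 and 2 without saline knockout 2 or 4 or treated knockout 1 or 2. Il17ra differed by 0.33 (SE 0.114, edgeR adjusted p = 0.0963) and Il17rc by 0.22 (0.515), and Il17a had 0 counts in all libraries. The share called was 5.88% of the IL-17 list, near that of all tested genes. It was 17.4% of the meningeal, 12.5% of the forebrain and 28.6% of the brainstem list.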

How the data were processed

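The deposited values were whole-number gene counts in 1 table, which the authors made with Trim Galore, HISAT2 and featureCounts on GRCm39, per the submitters' processing notes. Tool versions, settings, strandedness and multi-mapping rules were not given in the sources used here. Each of the 12 columns matched 1 sample, and no pair of libraries agreed within sampling noise. Genes were named by Ensembl ID from GENCODE M21 (GRCm38), which named 18746 of 19166 tested genes, and promoters came from RefSeq's table for GRCm38.p6.

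Genes passing edgeR's filterByExpr (10 counts, 15 in total) were scaled by TMM and fitted over all 12 libraries with 1 mean per group, no covariate and 9 residual degrees of freedom (edgeR 4.0.16, R 4.3.3, limma 3.58.1). Differences were tested with edgeR's quasi-likelihood test and adjusted by Benjamini-Hochberg over all tested genes at 0.05. Libraries held 35.2 to 56.4 M counts, and the common biological coefficient of variation was 0.152. The standard error is the absolute log2 fold change divided by the root of edgeR's F. The script was tested on simulated data.

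Named genes were the knocked-out gene, Il17a and its receptors Il17ra and Il17rc, the 10 strongest rises and 10 strongest falls with no overlap between libraries and a mean of at least 1 log2 CPM, the 20 rises and 20 falls of smallest p among genes called only in this comparison, and up to 4 genes per list by smallest p. Predicted genes and pseudogenes were counted and not named. The members and the 33 lists (909 symbols, 900 in the table) were chosen with earlier results of these data known. Alternatives were DESeq2 1.42.0, limma-voom, other scalings, filters, thresholds and designs, a replicate block, and each library left out. Omitting libraries with Ttr above 1000 CPM, and log2 Ttr as a covariate, were added after seeing the data.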

Additional observations from a re-analysis of the deposited data

Results flagged for a closer look

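Among 186 groups of 4 libraries, from 62 named genes in 3 groups each, 17 held a library whose gap to the nearest other exceeded Dixon's 95% critical share of the range. Chance gives about 1 in 20 such groups.

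In FVB, Cxcl10 was at 1.59 CPM in library 2 against 0.0608 to 0.142 in the others, Kirrel2 at 6.28 CPM in library 1 against 4.03 to 4.28, and Samd4 at 77 CPM in library 4 against 62.4 to 64.5.

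In the saline knockout, library 4 stood apart for Dynlt1b (7.98 CPM against 12.4 to 13.2), Fxyd5 (12.9 against 7.07 to 7.61), Zbtb40 (29.5 against 22.7 to 23.5) and Nos1 (154 against 215 to 226). Library 1 stood apart for Slc15a2 (27.9 CPM against 17 to 18.3), Necab3 (25.7 against 19.5 to 20.4) and Il17ra (14.8 against 11.4 to 11.6), and library 3 for Mcam (62.1 against 56.7 to 56.9).

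In the treated knockout, library 1 stood apart for Gdpd3 (5.32 CPM against 0.921 to 1.39) and Hmcn1 (7.26 against 1.35 to 1.97). Library 2 stood apart for Aida (65.3 CPM against 59.1 to 59.8) and Camkk1 (53.3 against 60.4 to 61.5), and library 3 for Emp1 (8.44 against 5.84 to 6.17) and Zbtb40 (39.1 against 29 to 30.2).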

How the results depend on the processing

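The 1352 calls became 1935 with DESeq2, 1230 with limma-voom, 1338 and 1331 with RLE and upper quartile scaling, 1626 with no filter, 1271 with a stricter one and 1396 with only the 2 groups compared. They ranged from 791 (without treated knockout 3) to 1542 (without saline knockout 4) with 1 library left out, with 900 without FVB 2. The 751 genes called only there became 943, 668, 737, 737, 811, 714 and 845 under the same settings, 516 of the 943 being shared, and ranged from 360 to 927 with 1 library left out. Without the 3 libraries high in Ttr the counts were 556 and 234, of which 482 and 97 were shared with the reported calls, and with log2 Ttr as a covariate they were 1025 and 480. An adjusted p limit of 0.1 gave 2123 and 1199. Requiring an unadjusted p of at least 0.05 in both other comparisons left 89. The cause of these moves was not tested. Fits with libraries left out also had fewer libraries, while the covariate fit kept them all.

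Fmr1 kept its direction and call in all of these settings (−1.51 to −1.39 with 1 library left out). No called gene named by the rules above reversed its direction. The choroid plexus and ependymal list had 2 rises called in the main fit and 2 falls without the libraries high in Ttr. Same-numbered libraries showed little shared deviation (r from −0.1 to 0.15, over 0.1 in 2 of 12 pairs, both of saline with treated knockout). Differently numbered libraries were not compared in this way, so whether the numbers pair the samples was not tested. A replicate block gave 1322 and 736 calls. The 4 libraries per group limit what can be called.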

Other observations

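Ngp, a neutrophil granule gene, was at 0.106 to 0.37 CPM in FVB, 0.469 to 8.59 in saline knockout libraries and 0.0886 to 1.69 in treated ones.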
